A study of Mus musculus with 69 samples.

Results

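The genes described here are 42 interferon-stimulated antiviral genes, chosen by name from the 24537 genes listed for each library. The rule is a list of gene symbols together with a floor of at least 1 TPM in 2 libraries. Their mRNA was measured by RNA-seq of polyadenylated RNA in bone marrow-derived macrophages (BMDMs), which are grown from marrow precursors in medium with the growth factor M-CSF. Levels are given in TPM, a normalised transcript abundance that takes transcript length and library size into account. All 42 had at least 1 TPM in at least 2 libraries of each of the 3 main tables, so every one of them was tested.

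The first table holds BMDMs of female mice of the strains SPRET/EiJ (SPRET), C57BL/6J (C57), NOD/ShiLtJ (NOD), BALB/cJ (BALB) and PWK/PhJ (PWK), left untreated (basal) or given IL-4 at 20 ng/ml for 24 hours, with 3 libraries per group except for basal PWK with 2. SPRET mice belong to a separate species, Mus spretus. The second table is a time course in which SPRET and C57 BMDMs were left basal or given IL-4 for 1, 6 or 24 hours. The third holds the same times in Egr2WT BMDMs (Egr2 fl/fl) and Egr2MKO BMDMs (LyzM-Cre+ Egr2 fl/fl), with 2 libraries per group in both tables. LyzM-Cre is active in myeloid cells, so Egr2, which encodes a transcription factor induced by IL-4, is deleted in these macrophages. Carrying the Cre and lacking EGR2 cannot be told apart here, as Egr2WT is described only by its floxed allele. F1 BMDMs of C57 crossed with SPRET or with NOD, basal and after 24 hours of IL-4 with 2 libraries each, gave values for each parental allele. In a bulk sample, fewer cells expressing a gene and less RNA per cell cannot be told apart.

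Type I interferon binds its receptor and activates JAK1 and TYK2, and a complex of transcription factors that holds STAT2 and IRF9 enters the nucleus and binds a DNA element called the ISRE (interferon-stimulated response element). The genes it switches on sense viral nucleic acid, block viral translation, degrade viral RNA, hold virus particles at membranes or feed back on the pathway itself. Macrophages keep many of these genes at a low, steady level without infection, while IL-4 acts through another factor, STAT6, and drives the alternative state of activation.

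Promoter windows are shown for 5 members that later results turn on, namely Ifit3 with the largest changes after IL-4, Isg15, Oas1a and Ifitm3 with large strain differences, and Bst2 with a high level in every strain. Each window runs from 250 bases before to 50 bases after the start site as annotated by RefSeq for GRCm38.p6, the assembly that mm10 is built on, and is written 5′ to 3′ on the strand of the gene. Capitals mark matches to the core of the ISRE, GAAANNGAAA on either strand, and neighbouring matches can share bases. The Ifit3 window is at chr19:34583279-34583578 on the plus strand, with matches that begin 156 and 122 bases before the start site. Isg15 is at chr4:156200769-156201068 on the minus strand, with matches 78, 72 and 66 bases before it. Oas1a is at chr5:120907476-120907775 on the minus strand, with matches 20 and 14 bases before it. Ifitm3 is at chr7:141010695-141010994 on the minus strand, with matches 2 and 19 bases after it. Bst2 is at chr8:71537423-71537722 on the minus strand, with matches 130 and 124 bases before it. The letters are those of the C57 reference and not of the other strains.
Ifit3: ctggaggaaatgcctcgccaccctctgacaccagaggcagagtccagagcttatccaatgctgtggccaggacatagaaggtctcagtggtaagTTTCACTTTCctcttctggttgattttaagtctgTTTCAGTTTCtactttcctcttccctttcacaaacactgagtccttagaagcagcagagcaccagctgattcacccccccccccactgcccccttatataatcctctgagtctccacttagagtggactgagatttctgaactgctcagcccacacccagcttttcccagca
Isg15: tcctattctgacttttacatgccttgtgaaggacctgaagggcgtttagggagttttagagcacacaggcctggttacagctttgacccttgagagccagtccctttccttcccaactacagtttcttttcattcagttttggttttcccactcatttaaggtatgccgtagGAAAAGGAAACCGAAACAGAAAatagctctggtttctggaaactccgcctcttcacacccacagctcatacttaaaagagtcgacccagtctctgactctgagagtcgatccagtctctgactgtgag
Oas1a: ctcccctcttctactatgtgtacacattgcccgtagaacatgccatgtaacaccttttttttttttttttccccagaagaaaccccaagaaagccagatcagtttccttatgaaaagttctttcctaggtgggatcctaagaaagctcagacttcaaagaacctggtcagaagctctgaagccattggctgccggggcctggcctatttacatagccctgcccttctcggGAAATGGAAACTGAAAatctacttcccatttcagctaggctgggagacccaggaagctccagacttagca
Ifitm3: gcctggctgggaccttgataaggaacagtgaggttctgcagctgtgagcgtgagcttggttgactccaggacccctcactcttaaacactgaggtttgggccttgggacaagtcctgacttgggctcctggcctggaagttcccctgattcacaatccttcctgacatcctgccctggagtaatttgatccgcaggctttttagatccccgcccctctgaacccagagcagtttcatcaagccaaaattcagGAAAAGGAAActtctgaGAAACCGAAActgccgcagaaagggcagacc
Bst2: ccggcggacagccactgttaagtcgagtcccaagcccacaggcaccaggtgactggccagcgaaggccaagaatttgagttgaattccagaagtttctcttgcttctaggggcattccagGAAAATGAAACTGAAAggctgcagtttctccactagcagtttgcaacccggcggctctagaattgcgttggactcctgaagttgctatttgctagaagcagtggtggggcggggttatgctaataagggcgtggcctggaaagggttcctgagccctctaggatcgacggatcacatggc

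The ISRE core and a second motif were counted on both strands in the windows of 32 of the 42 members that had one. No window was matched for Mx1, Mx2, Oas2, Usp18, Dhx58, Rtp4, Zbp1, Parp9, Parp14 and Tor3a. The ISRE core was present for 16 of the 32 members (50%), against 3.99% of 27025 genes with a window and 3.44% of 32851 windows. TTCNNNNGAA, the spacing preferred by STAT6, was present for 5 members (15.6%) and for 8.01% of all genes. A match describes the letters of the window only, and binding was not measured for it here.

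In basal C57 BMDMs, the members were expressed over a wide range of levels, from 2.61 TPM for Mx2 to 2504 TPM for Ifitm3, with a median of 30.5 TPM. Ifitm3, which stops virus entry at endosomes, was at 2572, 2430.4 and 2509.9 TPM in the 3 libraries, and Bst2, the tetherin that holds budding virions at the membrane, was at 1168, 1141 and 1257 TPM. Among the other roles, the highest members were Lgals3bp, a secreted galectin-binding protein, at 866 ± 58.4 TPM (SD, n = 3), Isg15, a ubiquitin-like modifier, at 163 ± 5.00 TPM, Trex1, a cytosolic DNA exonuclease, at 137 ± 9.57 TPM, Oasl2 of the oligoadenylate synthetase family at 95.7 ± 3.80 TPM and Zbp1, a sensor of Z-form nucleic acid, at 94.4 ± 6.61 TPM. Usp18, the protease that removes ISG15 and dampens receptor signalling, was at 47.2 ± 2.52 TPM, and Parp12 of the PARP family at 24.3 ± 1.67 TPM. The dynamin-like GTPases were the lowest, with Mx1 at 4.50, 5.22 and 4.21 TPM and Mx2 at 2.64, 2.15 and 3.05 TPM. None of the 42 had a mean under 1 TPM in basal C57.

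**Figure D1:**
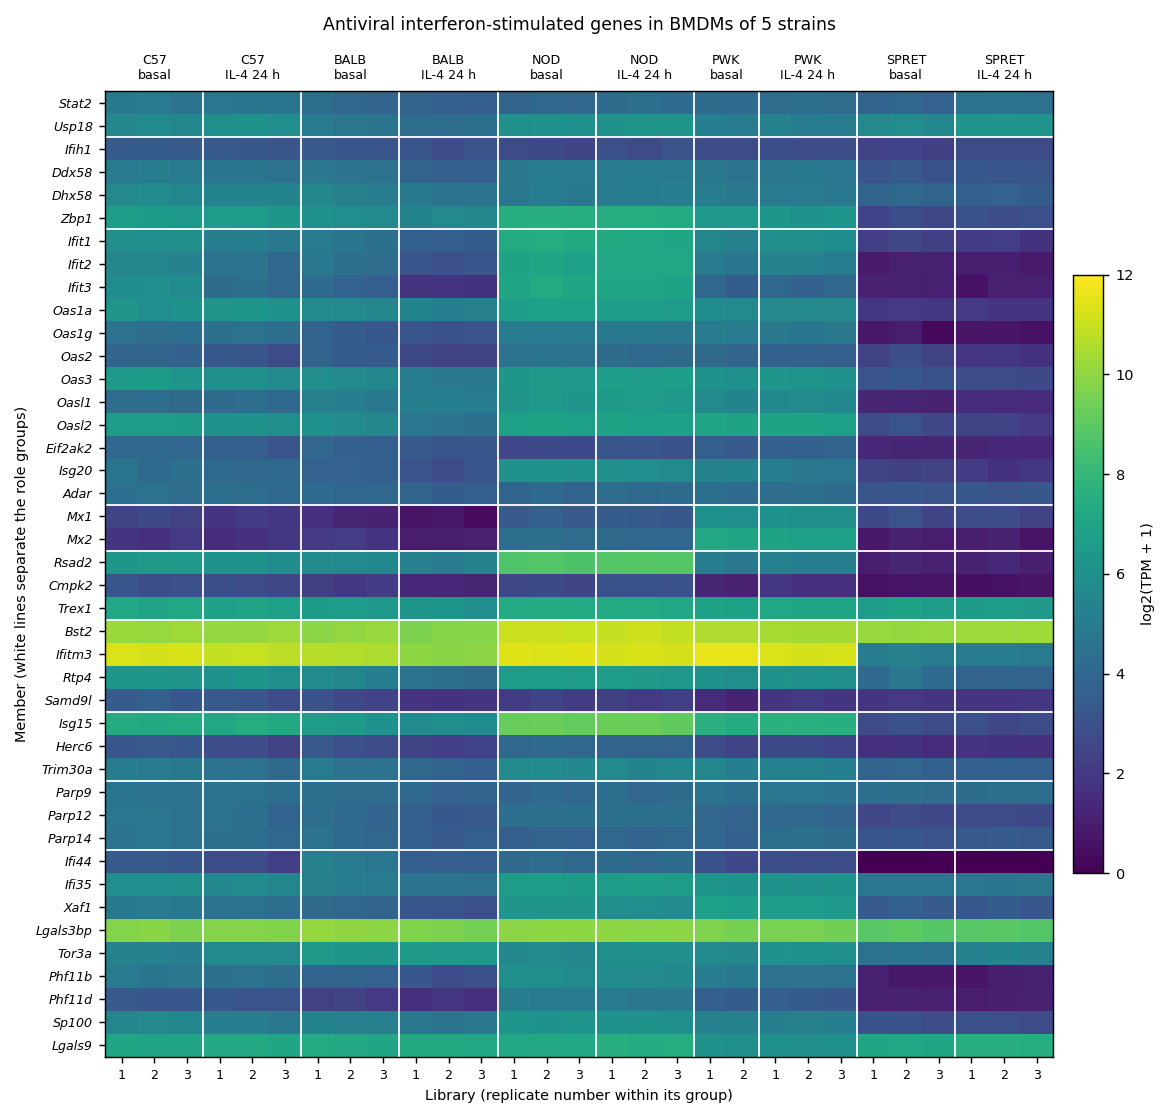
Heat map of the level of each of the 42 members, as log2(TPM + 1), in each library of the 5 strains, with members in rows grouped by role and libraries in columns grouped by strain and treatment. Ifitm3 stands out at 2504 TPM on average in basal C57 and at 33.6 TPM in basal SPRET, and the columns of SPRET are lower for most members.

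After 24 hours of IL-4, C57 BMDMs had lower mRNA of many members. limma called 21 of the 42 lower and 3 higher at an adjusted p under 0.05, where 20.5% and 15% of the 11907 genes tested were called in those directions, and 29 had an unadjusted p under 0.05. The median log2 difference of the members was -0.30, against -0.04 over all genes. Ifit3 was at 56.0, 57.1 and 54.8 TPM under basal conditions and at 18.2, 20.2 and 14.8 TPM after IL-4. Every IL-4 library was far below every basal library, and Ifit3 fell by 1.61 ± 0.14 on the log2 scale (± SE, adjusted p = 1.03e-09). Ifit2, at 43.0, 46.6 and 38.7 TPM before and 23.1, 22.6 and 15.3 TPM after IL-4, fell by 1.05 ± 0.14 (adjusted p = 9.45e-07). These were the 2 members called with more than a 2-fold fall, which 1.53% of all genes also showed. Ifit1 fell by 0.88 ± 0.12, Oas2, whose product activates RNase L, by 0.77 ± 0.13, and Ifi44 by 0.75 ± 0.13 (adjusted p = 9.57e-07, 4.81e-05 and 6.51e-05). Members named as changed, here and below, were taken from those whose libraries did not overlap between the groups. Their separation therefore follows from that choice. Only differences in response were named without this rule. By role, 8 of the 12 RNA binding and decay effectors fell, and 1 of the 4 sensors (Ddx58, which encodes RIG-I) did. Tor3a, a torsin ATPase, rose from 38.6, 39.0 and 34.6 TPM to 52.7, 52.5 and 48.6 TPM, by 0.45 ± 0.061 (adjusted p = 1.91e-06). Usp18 rose by 0.42 ± 0.080 (adjusted p = 1.64e-04). Lgals9, a galectin, was called higher by 0.15 (adjusted p = 0.0242), with adjusted p = 0.0651 to 0.0951 without C57 IL-4 24 h replicates 1 or 2 or C57 basal replicates 2 or 3.

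In BALB BMDMs, 38 of the 42 members were lower and 0 were higher, where 24.8% and 9.45% of all genes were called, and 39 had an unadjusted p under 0.05. The members' median was -0.61 and that of all genes -0.11. Ifit3 was at 17.1, 13.3 and 11.1 TPM in the basal libraries and at 2.45, 2.49 and 2.37 TPM after IL-4, a fall of 2.09 ± 0.14 on the log2 scale (adjusted p = 1.57e-11). The IL-4 values were all below the basal ones. Ifi44 fell by 1.37 ± 0.13, from 36.5, 29.1 and 25.1 TPM to 11.0, 10.8 and 11.1 TPM (adjusted p = 1.01e-08). Ifit2 fell by 1.42 ± 0.14, Oasl2 by 1.26 ± 0.12 and Oas2 by 1.14 ± 0.13 (adjusted p = 1.10e-08, 1.42e-08 and 2.54e-07). In all, 8 members fell past 2-fold, as did 0.815% of all genes. All members of the ubiquitin-like, PARP, membrane, nucleotide and dynamin-like groups were called lower, and the 4 that did not pass were Ifih1, Oasl1, Tor3a and Lgals9.

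NOD, PWK and SPRET BMDMs showed small changes in both directions. The members' medians were -0.01, 0.0005 and -0.02 in that order, below the medians of all genes at 0.12, 0.08 and 0.11. In NOD, 7 members were higher and 3 lower, with 28.2% and 6.07% of all genes called, and the split became 2 higher and 17 lower when the libraries were scaled by median ratios, a scaling that moved the median of all genes by -0.14. Shares of all genes, here and below, come from the fit without this scaling, so they are no measure for the scaled counts. Eif2ak2, the kinase PKR that stops translation when it binds viral RNA, was at 4.87, 5.25 and 5.51 TPM before and 8.17, 8.20 and 6.91 TPM after IL-4, a rise of 0.49 ± 0.12 (adjusted p = 0.00326). Cmpk2, a mitochondrial nucleotide kinase, rose by 0.39 ± 0.100, Tor3a by 0.36 ± 0.061 and Lgals9 by 0.24 ± 0.051 (adjusted p = 0.00426, 6.40e-05 and 8.55e-04), and Cmpk2, Lgals9 and Stat2 did not pass with the median-ratio scaling. Xaf1 fell by 0.37 ± 0.089 and Ifitm3 by 0.19 ± 0.056 (adjusted p = 0.00243 and 0.0117). Stat2, a subunit of the interferon-activated complex, was higher by 0.32 and Oas2 lower, at a log2 difference of -0.38, but Stat2 had adjusted p = 0.0537 without NOD basal replicate 1, and Oas2 had adjusted p = 0.0614 to 0.0875 without NOD IL-4 24 h replicates 2 or 3 or NOD basal replicates 1 or 2.

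In PWK, 5 members were higher and 4 lower, with 18.6% and 6.08% of all genes called, and median-ratio scaling made this 5 and 10. Without basal replicate 2 of PWK, 1 of only 2 basal libraries, 2 members were called higher. Cmpk2 was at 1.43 and 1.16 TPM before and 2.77, 2.27 and 2.04 TPM after IL-4 and rose by 0.55 ± 0.11 (adjusted p = 5.86e-04). Tor3a rose by 0.41 ± 0.068, and Ifitm3 fell by 0.32 ± 0.062 (adjusted p = 4.93e-05 and 3.52e-04). The other calls were lost when a single library was left out, and Bst2 was lost without any 1 of several. Samd9l, Ifit1 and Parp14 were higher by 0.60, 0.53 and 0.48, with adjusted p = 0.146 without PWK basal replicate 2 for Samd9l. Ifit1 had adjusted p = 0.112 without PWK basal replicate 2, and Parp14 had adjusted p = 0.121 without PWK basal replicate 2. Isg20, an RNA exonuclease, Phf11b and Bst2 were at log2 differences of -0.49, -0.43 and -0.18, with adjusted p = 0.0813 without PWK basal replicate 2 for Isg20. Phf11b had adjusted p = 0.174 without PWK basal replicate 1, and Bst2 had adjusted p = 0.0811 to 0.161 without PWK IL-4 24 h replicates 2 or 3 or PWK basal replicates 1 or 2.

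In SPRET, 7 members were higher and 7 lower, with 31.4% and 12.9% of all genes called, and 5 and 13 with median-ratio scaling, which moved the median of all genes by -0.11. Tor3a went from 20.9, 24.2 and 21.7 TPM to 38.6, 41.0 and 37.8 TPM, a rise of 0.79 ± 0.061 (adjusted p = 7.53e-11). Stat2 rose by 0.64 ± 0.090, Usp18 by 0.54 ± 0.080, Ifih1, which encodes the RNA sensor MDA5, by 0.41 ± 0.097 and Lgals9 by 0.36 ± 0.051 (adjusted p = 2.55e-06, 5.20e-06, 0.00128 and 2.77e-06). Oas2 was low throughout, at 4.19, 6.28 and 4.18 TPM before and 2.70, 2.83 and 2.29 TPM after IL-4, and fell by 0.69 ± 0.13 (adjusted p = 1.48e-04). Oasl2 fell by 0.52 ± 0.12 and Oas3 by 0.39 ± 0.11 (adjusted p = 0.00140 and 0.00420), but Oasl2 had adjusted p = 0.0559 in a fit on the groups compared alone. Rtp4 and Isg20 were at log2 differences of -0.51 and -0.37, with adjusted p = 0.0575 without SPRET basal replicate 2 for Rtp4 and adjusted p = 0.0850 without SPRET IL-4 24 h replicate 2 for Isg20, and 4 members were called lower without SPRET basal replicate 2. As a check of the treatment, Arg1, the best known IL-4 target, had a higher mean after IL-4 than under basal conditions in every strain, at 126 and 3411 TPM in C57 and 5.59 and 74.6 TPM in NOD.

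**Figure D2:**
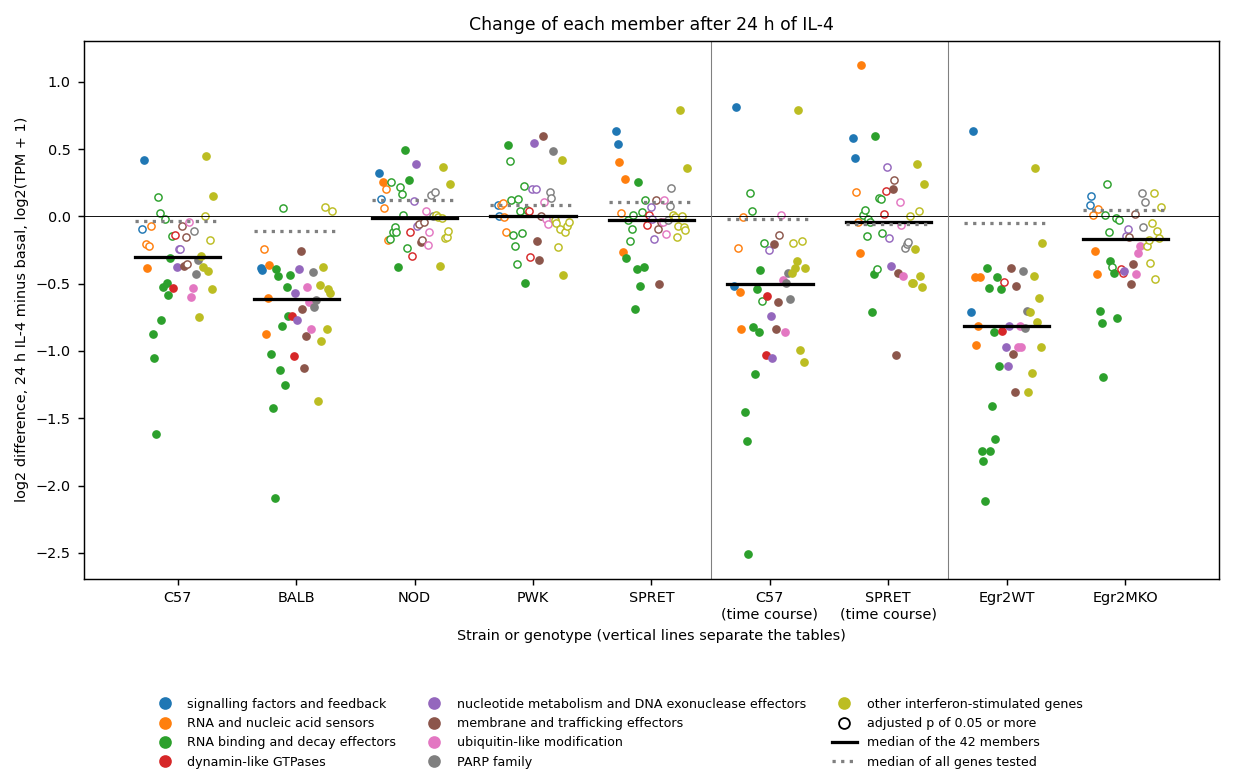
Log2 difference between 24 hours of IL-4 and basal (vertical axis, log2(TPM + 1) scale) for each of the 42 members, given for the strains and for both other tables, with 1 point per member coloured by role, open where the adjusted p is 0.05 or more, a black line at the members' median and a dotted line at the median of all genes tested. Ifit3 is the lowest point in C57 (-1.61), BALB (-2.09), C57 of the time course (-2.51) and Egr2WT (-2.12), and the medians of NOD, PWK and SPRET lie near 0.

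Responses were compared directly by an interaction contrast, the 24 h difference of a strain minus that of C57, so the 4 contrasts share the C57 libraries. Against C57, BALB had 13 members with a more negative response and 0 with a more positive one (10.4% and 5.43% of all genes), NOD had 0 and 18 (7.32% and 26%), PWK 1 and 15 (5.58% and 16.8%) and SPRET 0 and 17 (8.94% and 24.4%). Median-ratio scaling gave 7 more positive and 4 more negative members in NOD, 12 and 4 in PWK and 10 and 3 in SPRET, and it moved the median of all genes by -0.18, -0.14 and -0.16. Past 2-fold there were 3 members in NOD, 3 in PWK and 2 in SPRET, with 1.04%, 1.26% and 1.83% of all genes. Ifit3 had a difference in response of 1.50 ± 0.20, 1.74 ± 0.21 and 1.43 ± 0.20 in the 3 strains, in that order (adjusted p = 3.87e-06, 1.34e-06 and 4.94e-06). Ifit2 had 1.30 ± 0.19, 1.47 ± 0.21 and 1.02 ± 0.19 (adjusted p = 1.68e-05, 1.03e-05 and 2.36e-04). Eif2ak2 differed in NOD by 1.08 ± 0.17 and Ifit1 in PWK by 1.41 ± 0.17 (adjusted p = 4.56e-05 and 1.22e-06). Ifit3 had fallen in C57 and BALB, and its 24 h difference was -0.12 ± 0.14 in NOD and 0.12 ± 0.16 in PWK, neither of which passed. In SPRET it was -0.18 ± 0.14, but Ifit3 and Ifit2 began there at 1.11, 1.13 and 1.09 TPM and 0.826, 1.07 and 1.08 TPM. From those levels the scale of log2(TPM + 1) allows changes down to -1.08 and -0.99, less than the falls in C57. A response as in C57 could thus not have been seen on that scale. The same held for Ifi44, and so for 3 of the 17 members called in SPRET. With a pseudocount of 0.1 TPM, which allows larger falls from these levels, the SPRET differences were 1.29 for Ifit3 and 1.03 for Ifit2 (limma, adjusted p = 8.67e-04 and 7.68e-04).

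Smaller differences in response past the threshold included Ifi44 in NOD (0.76, adjusted p = 0.00335) and SPRET (0.76, 0.00288), Oas3 in NOD (0.74, 5.97e-04), Samd9l and Eif2ak2 in PWK (0.95 and 0.81, adjusted p = 0.00238 and 0.00247) and Stat2 and Herc6, the main ISG15 ligase of mice, in SPRET (0.73 and 0.72, adjusted p = 8.89e-05 and 0.00306). Basal Ifi44 in SPRET was 0, 0 and 0.0230 TPM, under 1 TPM in every library. In BALB, Rtp4, Mx2, Usp18 and Oasl2 had more negative responses than in C57, at differences of -0.97, -0.90, -0.82 and -0.76 (adjusted p = 9.22e-04, 5.30e-04, 1.26e-05 and 0.00356). Ifi44 was at -0.62, with adjusted p = 0.0600 to 0.0901 without BALB basal replicate 1, C57 IL-4 24 h replicates 1 or 2 or C57 basal replicate 3. Usp18 was below C57 in response in PWK also, at -0.42, with adjusted p = 0.0807 without PWK basal replicate 1. Without BALB basal replicate 3 the count in BALB was 20, and without PWK basal replicate 2 the count of more positive members in PWK was 9.

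In basal SPRET, 38 of the 42 members were lower than in basal C57 and 0 were higher, where 32.9% and 35.5% of all genes were called, and 32 were lower past 2-fold, as were 9.52% of all genes. The median of the members was -1.88 on the log2 scale, and that of all genes was 0.02. Ifitm3 was at 33.1, 36.05 and 31.6 TPM in SPRET against 2572, 2430.4 and 2509.9 TPM in C57, a difference of -6.18 ± 0.056 (adjusted p = 1.99e-30). Rsad2, viperin, which makes a nucleotide that ends viral RNA chains, was at 0.972, 1.46 and 1.15 TPM against 81.7, 88.6 and 84.1 TPM (-5.29 ± 0.10, adjusted p = 6.84e-24). Isg15 was at 5.80, 6.79 and 5.59 TPM against 165, 157 and 166 TPM (-4.54 ± 0.10, adjusted p = 2.02e-22). The libraries of the 2 strains were far apart for each of these genes. Ifit3, at 1.11, 1.13 and 1.09 TPM in SPRET, and Ifit2, at 0.826, 1.07 and 1.08 TPM, differed by -4.76 ± 0.14 and -4.45 ± 0.14 (adjusted p = 6.40e-20 and 1.30e-19). All 12 RNA binding and decay effectors were lower, with a group median of -3.42, as were all 4 sensors with -1.77. Usp18, Bst2, Mx1 and Lgals9 did not pass, at 0.11 ± 0.080, -0.078 ± 0.056, 0.25 ± 0.15 and 0.060 ± 0.051, and Bst2 was the highest member in basal SPRET at 1144, 1104 and 1129 TPM.

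The time course gave the same comparison in other libraries. There 35 members were lower in basal SPRET and 4 higher (26.4% and 34.3% of all genes), 27 and 1 past 2-fold (8.88% and 9.92%), with a median of -1.51 against 0.07 over all genes. Ifitm3 was at 38.1 and 29.5 TPM against 1538 and 1659 TPM (-5.53 ± 0.11, adjusted p = 9.31e-13). Oasl2 differed by -4.88 ± 0.15, Oas1a by -4.74 ± 0.18, Isg15 by -4.73 ± 0.25 and Rsad2 by -3.97 ± 0.20 (adjusted p = 5.30e-11, 2.54e-10, 5.15e-09 and 3.06e-09). In contrast to all of these, Usp18, which had not passed in the first table, was higher in SPRET, at 63.2 and 64.9 TPM against 29.8 and 32.9 TPM (1.01 ± 0.079, adjusted p = 2.36e-07). Mx1, Trex1 and Lgals9 were also called higher, by 0.53, 0.39 and 0.27. Those 3 calls were marginal, each being lost without any 1 of several libraries. Mx1 was lost without time course C57 basal replicate 1 or time course SPRET basal replicates 1 or 2 (log2 differences of 0.30, 0.57 and 0.50). Trex1 had adjusted p = 0.0654 to 0.245 without time course C57 basal replicate 1 or time course SPRET basal replicates 1 or 2, and Lgals9 had adjusted p = 0.0521 to 0.129 without time course C57 basal replicate 1 or time course SPRET basal replicate 2. The SPRET reads were aligned by the authors to a SPRET genome made by placing known variants into mm10, and the part of alignment in the low SPRET values was not tested.

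Basal NOD went the other way. Of the 42 members, 29 were higher than in C57 and 9 lower, where 20.1% and 54.1% of all genes were called, and 12 were higher and 2 lower past 2-fold (5.15% and 11.7%). The members' median was 0.59 while that of all genes was -0.30, and median-ratio scaling, which moved the latter by 0.30, gave 32 higher and 7 lower. Mx2 was at 19.5, 20.4 and 18.6 TPM against 2.64, 2.15 and 3.05 TPM in C57 (2.51 ± 0.12, adjusted p = 1.67e-15). Rsad2 was at 413, 442 and 399 TPM (2.29 ± 0.10, adjusted p = 5.57e-16) and Isg15 at 582, 609.9 and 549.8 TPM (1.83 ± 0.10, adjusted p = 5.34e-14). For each of them the NOD libraries were all above the C57 libraries. Oasl1 was higher by 2.08 ± 0.088 and Isg20 by 1.69 ± 0.12 (adjusted p = 1.77e-16 and 2.79e-12). Eif2ak2 was lower in NOD, at 4.87, 5.25 and 5.51 TPM against 16.0, 16.3 and 14.5 TPM (-1.42 ± 0.12, adjusted p = 1.93e-10), as were Samd9l (-1.29 ± 0.14), Stat2 (-0.85 ± 0.090), Parp14 (-0.84 ± 0.11) and Ifih1 (-0.83 ± 0.097), with adjusted p = 1.78e-08, 6.33e-09, 1.77e-07 and 3.16e-08. The 9 other interferon-stimulated genes were all higher in NOD, and the 3 members of the PARP family held 0 that were higher and 2 that were lower.

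Basal PWK was mixed. There 12 members were higher and 20 lower (19.7% and 41.5% of all genes), 4 and 4 past 2-fold (4.49% and 8.81%). Median-ratio scaling gave 16 higher and 16 lower and moved the median of all genes by 0.16, and without PWK basal replicate 2 the number called lower was 13. Both dynamin-like GTPases stood out. Mx2, on chromosome 16 (mm10, 97536081 to 97560901), was at 150.2 and 131 TPM against 2.64, 2.15 and 3.05 TPM in C57 (5.29 ± 0.13, adjusted p = 5.40e-21). Mx1, its neighbour (97447037 to 97462905), was at 64.8 and 57.6 TPM against 4.50, 5.22 and 4.21 TPM (3.46 ± 0.17, adjusted p = 2.89e-15). Many laboratory strains, C57 among them, are known to carry defective alleles of both genes. Xaf1 was higher in PWK by 1.92 ± 0.099, Oasl1 by 1.32 ± 0.099 and Isg20 by 0.99 ± 0.13 (adjusted p = 1.24e-14, 1.74e-11 and 4.84e-07). The lower members were led by Samd9l at a log2 difference of -2.16 ± 0.16, Ifit3 at -2.06 ± 0.16, Cmpk2 at -1.80 ± 0.11, Rsad2 at -1.46 ± 0.12 and Lgals9 at -0.999 ± 0.057 (adjusted p = 1.79e-11, 3.49e-11, 4.48e-13, 5.23e-11 and 1.06e-13). Cmpk2 and Rsad2 lie side by side on chromosome 12 (26469215 to 26479837 and 26442743 to 26456452).

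Basal BALB was lower than C57 for 34 members and higher for 5 (18.4% and 24.8% of all genes), 4 and 2 of them past 2-fold (2.17% and 2.65%), with a median of -0.63 against 0.04 over all genes. Ifit3 was at 17.1, 13.3 and 11.1 TPM against 56.0, 57.1 and 54.8 TPM (-1.96 ± 0.14, adjusted p = 2.80e-11), and Ifi44 moved the opposite way, at 36.5, 29.1 and 25.1 TPM against 9.53, 9.55 and 8.23 TPM (1.62 ± 0.13, adjusted p = 2.54e-10). In both cases the libraries of the strains did not overlap. Ifit1 differed by -1.24 ± 0.12, Mx1 by -1.16 ± 0.15, Phf11d by -1.05 ± 0.11 and Phf11b by -0.97 ± 0.12 (adjusted p = 2.71e-09, 5.88e-07, 9.98e-09 and 1.72e-07). Tor3a was higher by 1.09 ± 0.061, Oasl1 by 0.82 ± 0.088, Lgals3bp by 0.24 ± 0.060 and Lgals9 by 0.20 ± 0.051 (adjusted p = 1.78e-13, 3.30e-08, 0.00189 and 0.00302), and Lgals9 had adjusted p = 0.0590 in a fit on the groups compared alone. The 4 basal comparisons share the C57 libraries. Basal C57 levels also differed between the tables, with Ifit3 lower in the time course than here. The SE covers only the spread between libraries of a single table. Ifit1, Ifit3, Oas1a, Oas1g, Phf11b, Phf11d and Trim30a have near-identical copies with which reads may be shared, so their values are uncertain to that extent.

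**Figure D3:**
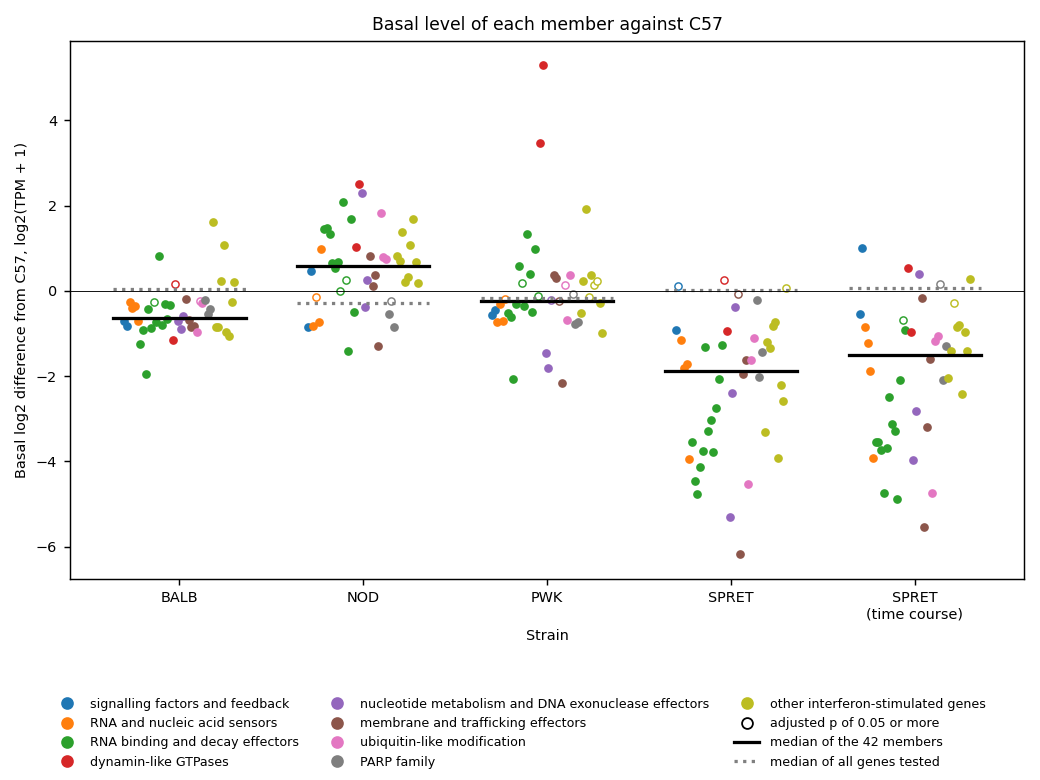
Log2 difference from C57 under basal conditions (vertical axis, log2(TPM + 1) scale) for each of the 42 members in BALB, NOD, PWK and SPRET and in SPRET of the time course, with 1 point per member coloured by role, open where the adjusted p is 0.05 or more, a black line at the members' median and a dotted line at the median of all genes tested. The members' median is -1.88 in SPRET and 0.59 in NOD, and the highest point is Mx2 in PWK at 5.29.

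In the time course, C57 members changed late. After 1 hour 0 members passed in C57 (4 at an unadjusted p under 0.05, 3.95% of all genes called), after 6 hours 4 were higher and 3 lower (10.9% and 9.55%), and after 24 hours 2 were higher and 29 lower (18.2% and 21.1%), 7 of the latter past 2-fold (2.91%). The median at 24 hours was -0.50 against -0.02 over all genes. Ifit3 was at 17.8 and 21.2 TPM under basal conditions, 17.5 and 26.1 TPM at 1 hour, 10.6 and 9.05 TPM at 6 hours and 1.97 and 3.32 TPM at 24 hours. The basal values were below those of C57 in the first table. The 24-hour libraries were the lowest of the course, a fall of 2.51 ± 0.21 from basal (adjusted p = 1.33e-06). Ifit2 fell by 1.67 ± 0.19, Ifit1 by 1.45 ± 0.23, Oas3 by 1.17 ± 0.098 and Sp100, a nuclear body protein, by 1.08 ± 0.12 (adjusted p = 2.35e-05, 2.88e-04, 1.31e-06 and 1.61e-05). Usp18 and Tor3a rose by 6 hours, by 0.64 and 0.67 (adjusted p = 9.03e-05 and 2.69e-06), and by 0.81 and 0.79 at 24 hours (adjusted p = 5.11e-06 and 2.42e-07). The remaining calls at 6 hours were marginal, each being lost without any 1 of several libraries. Zbp1 was at 0.73 with adjusted p = 0.0609 to 0.0649 without time course C57 IL-4 6 h replicate 2 or time course C57 basal replicate 1. Lgals9 was at 0.27 with adjusted p = 0.0793 to 0.148 without time course C57 IL-4 6 h replicates 1 or 2 or time course C57 basal replicates 1 or 2. Ifit3 was at -0.92 with adjusted p = 0.0666 to 0.0769 without time course C57 IL-4 6 h replicate 2 or time course C57 basal replicate 2, and Rsad2 at -0.64 with adjusted p = 0.0814 to 0.332 without time course C57 IL-4 6 h replicates 1 or 2 or time course C57 basal replicate 2. Trim30a was at -0.27 with adjusted p = 0.0896 to 0.208 without time course C57 IL-4 6 h replicate 1 or time course C57 basal replicates 1 or 2.

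In SPRET, 0 members passed at 1 hour (4 at an unadjusted p under 0.05, 8.75% of all genes called), 9 were higher and 1 lower at 6 hours (16.9% and 13.7%, 7 and 2 with median-ratio scaling), and 7 were higher and 12 lower at 24 hours (14.8% and 21.8%). At 6 hours 1 member passed 2-fold, Tor3a, which was at 35.0 and 34.3 TPM and then 72.9 and 70.8 TPM (1.03 ± 0.055, adjusted p = 2.47e-08, 2.81% of all genes past 2-fold). At 24 hours Zbp1 rose past 2-fold, from 1.95 and 1.79 TPM to 5.66 and 4.86 TPM (1.12 ± 0.17, adjusted p = 2.67e-04, 2.62% of all genes), and Rtp4 fell past 2-fold, from 6.25 and 6.03 TPM to 1.96 and 3.13 TPM (-1.03 ± 0.15, adjusted p = 1.33e-04, 2.99% of all genes). The libraries of these genes did not overlap between the times. Stat2 rose by 0.90 at 6 hours and 0.58 at 24 hours (adjusted p = 3.34e-05 and 8.32e-04), Zbp1 and Parp14 by 0.93 and 0.62 at 6 hours (adjusted p = 0.00140 and 7.59e-04). Zbp1 at 6 hours had adjusted p = 0.104 in a fit on the groups compared alone. Usp18 and Tor3a rose by 0.43 and 0.39 at 24 hours (adjusted p = 8.91e-04 and 1.14e-04). Ifi35 fell by 0.50 at 24 hours (adjusted p = 0.00369). Calls that depended on single libraries were Isg15 at 6 hours (0.80, adjusted p = 0.158 to 0.258 without time course SPRET IL-4 6 h replicate 2 or time course SPRET basal replicate 1), and Trim30a at 6 hours (-0.29, adjusted p = 0.0672 to 0.103 without time course SPRET IL-4 6 h replicate 2 or time course SPRET basal replicates 1 or 2). At 24 hours they were Oasl1 (0.59, adjusted p = 0.0583 to 0.102 without time course SPRET IL-4 24 h replicates 1 or 2 or time course SPRET basal replicate 1) and Oas2 (-0.71, adjusted p = 0.103 to 0.144 without time course SPRET IL-4 24 h replicate 2 or time course SPRET basal replicate 2), as well as Sp100 (-0.53, adjusted p = 0.0538 without time course SPRET IL-4 24 h replicate 1) and Xaf1 (-0.50, adjusted p = 0.0573 to 0.0644 without time course SPRET IL-4 24 h replicate 1 or time course SPRET basal replicate 1).

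Between the 2 strains, the response of SPRET minus that of C57 passed for 0 members at 1 hour (1 at an unadjusted p under 0.05, 2.32% of all genes called), for 3 higher and 0 lower at 6 hours (5.85% and 5.29%) and for 19 higher and 2 lower at 24 hours (12.8% and 16.1%), 9 of the 19 past 2-fold (3.09%). Ifit3, Ifit2 and Ifit1 led at 24 hours with 2.37 ± 0.30, 1.72 ± 0.27 and 1.46 ± 0.32 (adjusted p = 9.13e-05, 5.37e-04 and 0.00490), followed by Oasl1 and Zbp1 with 1.13 ± 0.25 and 1.13 ± 0.25 (adjusted p = 0.00466 and 0.00457). Ifit3 in SPRET was at 0.505 and 0.558 TPM before and 0.361 and 0.411 TPM after IL-4. From that basal level the scale of log2(TPM + 1) allows no change below -0.61, against -2.51 in C57. A fall as large as in C57 could thus not have been seen on that scale. Ifit1, Ifit2, Oasl1 and Mx2 also fell in C57 by more than their SPRET levels allowed, which makes 5 of the 19. With a pseudocount of 0.1 TPM the difference was 2.50 for Ifit3. At 6 hours Stat2 and Tor3a had more positive responses in SPRET, by 0.88 and 0.36 (adjusted p = 0.00219 and 0.00955), and Ifih1 by 0.57, with adjusted p = 0.0634 to 0.0771 without time course C57 IL-4 6 h replicate 1, time course C57 basal replicates 1 or 2, time course SPRET IL-4 6 h replicate 1 or time course SPRET basal replicate 1. Without SPRET basal replicate 2 the count at 6 hours was 5. The lower calls at 24 hours were Tor3a (-0.40, adjusted p = 0.00195) and Usp18 (-0.38, adjusted p = 0.0633 to 0.0932 without time course C57 IL-4 24 h replicate 2, time course C57 basal replicate 1, time course SPRET IL-4 24 h replicate 2 or time course SPRET basal replicate 2).

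The Egr2 libraries matched their labels. Egr2 was at 23.6 and 21.3 TPM in basal Egr2WT and 0.859 and 0.854 TPM in basal Egr2MKO, and after 24 hours of IL-4 it was at 101 and 99.5 TPM in Egr2WT and 4.72 and 7.05 TPM in Egr2MKO. At 1 and 6 hours its means were 78.8 and 90.5 TPM in Egr2WT against 3.74 and 4.16 TPM in Egr2MKO. Which exons the remaining reads covered was not tested.

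In Egr2MKO BMDMs, most members were higher than in Egr2WT at each time. Under basal conditions 38 of the 42 were higher in Egr2MKO and 0 lower, where 5.95% and 5.56% of all genes were called. At 1 hour the counts were 39 and 0 (6.04% and 5.37%), at 6 hours 36 and 0 (11.5% and 9.12%) and at 24 hours 41 and 0 (25.9% and 11.5%). Past 2-fold these were 7, 9, 15 and 28 members, against 0.373%, 0.48%, 0.894% and 2.42% of all genes. The members' median difference was 0.58, 0.72, 0.71 and 1.22 at the 4 times, while that of all genes was 0.02, 0.01, 0.02 and 0.12. At 24 hours median-ratio scaling moved the median of all genes by -0.12 and gave 39 higher and 0 lower. At 6 hours a fit on the groups compared alone, with 2 libraries each, gave 17 higher. The 4 members that did not pass under basal conditions were Oasl1 (0.38 ± 0.19), Mx2 (0.75 ± 0.25), Phf11b (0.79 ± 0.24) and Lgals9 (0.0038 ± 0.059), and at 24 hours Usp18 (0.23 ± 0.12) was the single one.

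Ifit3 differed most. It was at 9.45 and 11.4 TPM in basal Egr2WT and 42.5 and 37.8 TPM in basal Egr2MKO, and at 1.68 and 1.57 TPM in Egr2WT and 16.4 and 17.6 TPM in Egr2MKO after 24 hours of IL-4. The Egr2MKO libraries were above the Egr2WT libraries in both states, by 1.85 ± 0.14 and 2.78 ± 0.14 on the log2 scale (adjusted p = 5.50e-06 and 2.48e-08). Ifit1 was at 6.04 and 4.21 TPM in Egr2WT and 32.2 and 31.0 TPM in Egr2MKO at 24 hours (2.43 ± 0.15, adjusted p = 1.71e-07), and Oas2 at 5.11 and 5.00 TPM and 25.3 and 28.5 TPM (2.20 ± 0.098, adjusted p = 9.23e-09). None of these libraries overlapped between the genotypes, which the choice of named members required. Ifi44 and Ifit2 were higher at 24 hours by 2.17 ± 0.14 and 2.16 ± 0.16 (adjusted p = 1.97e-07 and 6.17e-07). Under basal conditions Ifit1 was higher by 1.39 ± 0.15, Ifit2 by 1.13 ± 0.16, Cmpk2 by 1.09 ± 0.13 and Ifi44 by 1.08 ± 0.14 (adjusted p = 1.02e-04, 5.64e-04, 2.05e-04 and 3.18e-04). At 1 hour the leading differences were Ifit3 (1.82 ± 0.14), Ifit1 (1.64 ± 0.15), Ifit2 (1.44 ± 0.16), Ifi44 (1.37 ± 0.14) and Cmpk2 (1.30 ± 0.13), with adjusted p of 5.71e-06, 2.58e-05, 9.01e-05, 4.83e-05 and 4.75e-05. At 6 hours they were Ifit3 (2.05 ± 0.14), Ifit1 (1.81 ± 0.15), Rtp4 (1.58 ± 0.086), Ifit2 (1.32 ± 0.16) and Ifi44 (1.27 ± 0.14), with adjusted p of 1.43e-06, 8.02e-06, 2.88e-07, 1.16e-04 and 5.69e-05.

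Over all roles at 24 hours, all 4 sensors, all 12 RNA binding and decay effectors, both dynamin-like GTPases, all 3 nucleotide and exonuclease effectors, all 4 membrane effectors, all 3 ubiquitin-like members, all 3 PARP members and all 9 others were higher in Egr2MKO. The group medians lay between 1.002 for the others and 1.50 for Rsad2, Cmpk2 and Trex1, leaving aside the pair of signalling factors at 0.72. Ifitm3, the most abundant member, was at 784 and 737 TPM in Egr2WT and 1401 and 1509 TPM in Egr2MKO (0.93 ± 0.060, adjusted p = 2.15e-07).

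**Figure D4:**
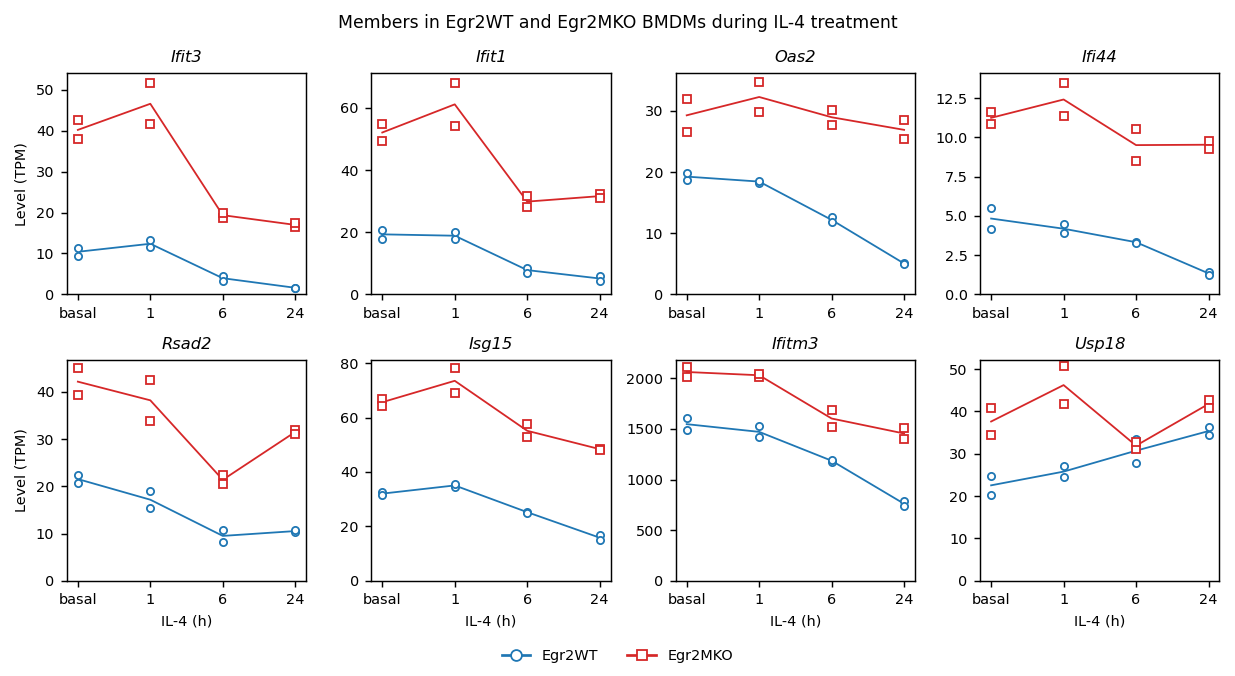
TPM of 8 members (vertical axes) in each library of Egr2WT and Egr2MKO by time in IL-4 (basal, 1, 6 and 24 hours, evenly spaced and not to scale), with lines through the means. Egr2WT lines end at their lowest values at 24 hours for Ifit3 (mean 1.62 TPM), and the Egr2MKO points lie above them (mean 17.0 TPM).

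IL-4 lowered the members in Egr2WT over time. At 1 hour 0 passed (5 at an unadjusted p under 0.05, 3.24% of all genes called), at 6 hours 20 were lower and 4 higher (9.21% and 16.2%), and at 24 hours 39 were lower and 2 higher (18.2% and 12%), with 5 and 12 lower past 2-fold at the latter times (0.869% and 2.04%). At 6 hours a fit on the groups compared alone gave 12 lower. Oas2 was at 18.7 and 19.8 TPM before and 5.11 and 5.00 TPM after 24 hours, a fall of 1.74 ± 0.098 (adjusted p = 5.79e-08), and Oasl2 fell from 85.0 and 85.3 TPM to 27.5 and 25.3 TPM, by 1.65 ± 0.060 (adjusted p = 1.41e-09). Their libraries were well separated. Ifit3 fell by 2.12 ± 0.14, Ifit2 by 1.82 ± 0.16 and Ifit1 by 1.74 ± 0.15 (adjusted p = 2.40e-07, 2.77e-06 and 3.02e-06), while Usp18 rose by 0.63 and Tor3a by 0.36 (adjusted p = 0.00180 and 0.00169). At 6 hours Ifit3 fell by 1.21, Ifit1 by 1.21, Rsad2 by 1.11 and Rtp4 by 1.02 (adjusted p = 5.05e-05, 1.02e-04, 7.75e-05 and 3.45e-06), and Tor3a rose by 0.68 (adjusted p = 1.45e-05). Calls at 6 hours that depended on single libraries were Isg20 (-1.07, adjusted p = 0.0501 to 0.0524 without Egr2WT IL-4 6 h replicate 2 or Egr2WT basal replicate 2), Usp18 (0.43, adjusted p = 0.158 to 0.181 without Egr2WT IL-4 6 h replicate 1 or Egr2WT basal replicate 1), Zbp1 (0.37, adjusted p = 0.173 to 0.240 without Egr2WT IL-4 6 h replicate 1 or Egr2WT basal replicate 1) and Parp9 (0.25, adjusted p = 0.0669 to 0.166 without Egr2WT IL-4 6 h replicate 2 or Egr2WT basal replicates 1 or 2).

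In Egr2MKO fewer members passed. At 1 hour there were 0 (7 at an unadjusted p under 0.05, 4.13% of all genes called), at 6 hours 12 lower and 6 higher (10.5% and 19.2%), and at 24 hours 14 lower and 0 higher (11.8% and 16.2%), with 1 lower past 2-fold at each of the latter times (1.33% and 2.07%), Ifit3. These counts moved with single libraries, to 7 lower at 6 hours without Egr2MKO basal replicate 1 or 2, and at 24 hours to 8 without Egr2MKO IL-4 24 h replicate 2 or basal replicate 2 and to 9 without basal replicate 1. Ifit3 was at 42.5 and 37.8 TPM before and 16.4 and 17.6 TPM after 24 hours, a fall of 1.19 ± 0.14 (adjusted p = 3.67e-05). Ifit2 fell by 0.79, Ifit1 by 0.70 and Ifitm3 by 0.50 (adjusted p = 0.00244, 0.00424 and 4.54e-05), and Isg20 was at -0.75, with adjusted p = 0.0593 to 0.212 without Egr2MKO IL-4 24 h replicates 1 or 2 or Egr2MKO basal replicates 1 or 2. At 6 hours Ifit3 fell by 1.01, Rsad2 by 0.95 and Ifit1 by 0.78 (adjusted p = 1.68e-04, 2.31e-04 and 0.00207). Oas1g rose by 0.54, Zbp1 by 0.50, Tor3a by 0.41 and Parp14 by 0.34 (adjusted p = 0.00200, 0.00504, 6.57e-04 and 0.00243). Isg20 (-0.72, adjusted p = 0.0651 to 0.248 without Egr2MKO IL-4 6 h replicate 2 or Egr2MKO basal replicates 1 or 2), Cmpk2 (-0.57, adjusted p = 0.0563 without Egr2MKO IL-4 6 h replicate 2) and Stat2 (0.29, adjusted p = 0.0611 to 0.0664 without Egr2MKO IL-4 6 h replicate 2 or Egr2MKO basal replicate 2) depended on single libraries.

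The difference between the genotypes in response was tested directly. At 1 and 6 hours 0 members passed (3 and 11 at an unadjusted p under 0.05, with 0.0166% and 1.1% of all genes called). At 24 hours 29 had a more positive response in Egr2MKO and 0 a more negative one (8.78% and 3.85%), 6 of them past 2-fold (1.13%), and the median was 0.54 against 0.10 over all genes. With median-ratio scaling, which moved the latter by -0.11, these counts were 26 and 1. Oas2 was at 31.9 and 26.6 TPM before and 25.3 and 28.5 TPM after IL-4 in Egr2MKO, so its libraries lay close together there, and its response differed from that in Egr2WT by 1.63 ± 0.14 (adjusted p = 1.74e-05). Oasl2 differed by 1.23 ± 0.085, Ifi44 by 1.09 ± 0.20, Oas3 by 1.08 ± 0.084 and Ifit1 by 1.04 ± 0.22 (adjusted p = 4.84e-06, 0.00329, 1.12e-05 and 0.00749), and Ifit2, the remaining member past 2-fold, by 1.03 ± 0.22 (adjusted p = 0.00979). Of the 12 RNA binding and decay effectors 10 passed and of the PARP family 3 of 3, while Mx1, Mx2, Rsad2, Bst2 and Usp18 were among those that did not. These contrasts share libraries with the comparisons of the preceding paragraphs.

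F1 cells of C57 and SPRET hold both alleles in 1 nucleus, so a difference between alleles there can be set beside the difference between the parents. The values are allele-weighted by the authors and not on the TPM scale, their depth is unknown, and with 2 libraries the ratios, taken as differences of log2(value + 1), are given without a test. Of the 42 members, 37 had basal values of at least 1 for either allele in both libraries, and Zbp1, Ifit1, Ifit2, Ifit3 and Ifi44 did not. The median log2 ratio of the SPRET to the C57 allele was -0.04 for the 37 members, against -1.62 between the parents, and the ratio in the F1 was above the parental difference for 37 of 37 members. Among all 10344 genes the share was 50.2%, but it was 92.4% of the 893 genes lower past 2-fold in the SPRET parent, against 27 of 27 members. Among the 27 members lower past 2-fold in the SPRET parent, the median was -2.08 between the parents and -0.14 between the alleles, and 3 of them (11.1%) were still lower past 2-fold in the F1. For the 893 genes these medians were -1.57 and -0.55, and 30.5% were still lower past 2-fold.

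Rsad2 was at 6.99 and 9.30 for the C57 allele and at 7.20 and 7.30 for the SPRET allele in the 2 libraries, so the alleles lay side by side, at a log2 ratio of -0.14 against -5.29 between the parents. Oasl2 had a ratio of -0.061 against -3.77, and Isg15 ratios of -1.22 and -0.42 against -4.54. The 3 members that kept a low SPRET allele were Ifitm3, Oas1a and Oas1g. The SPRET allele of Oas1g was under 1, at 0.604 and 0.397, so its ratio depends on the added constant and is -3.02 with 0.1 in place of 1. Ifitm3 was at 3617 and 3314 for the C57 allele and 302 and 279.9 for the SPRET allele, a ratio of -3.57 against -6.18 between the parents. Oas1a and Oas1g had ratios of -2.11 and -1.93 against -4.12 and -3.75. In 6 members the SPRET allele was higher past 2-fold, namely Mx1 (1.95), Phf11d (1.65), Bst2 (1.60), Rtp4 (1.56), Lgals9 (1.22) and Usp18 (1.10). The share of all genes with such a ratio was not counted, so whether 6 is many cannot be said. Phf11d and Rtp4 were lower in the SPRET parent, at -2.22 and -1.94.

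**Figure D5:**
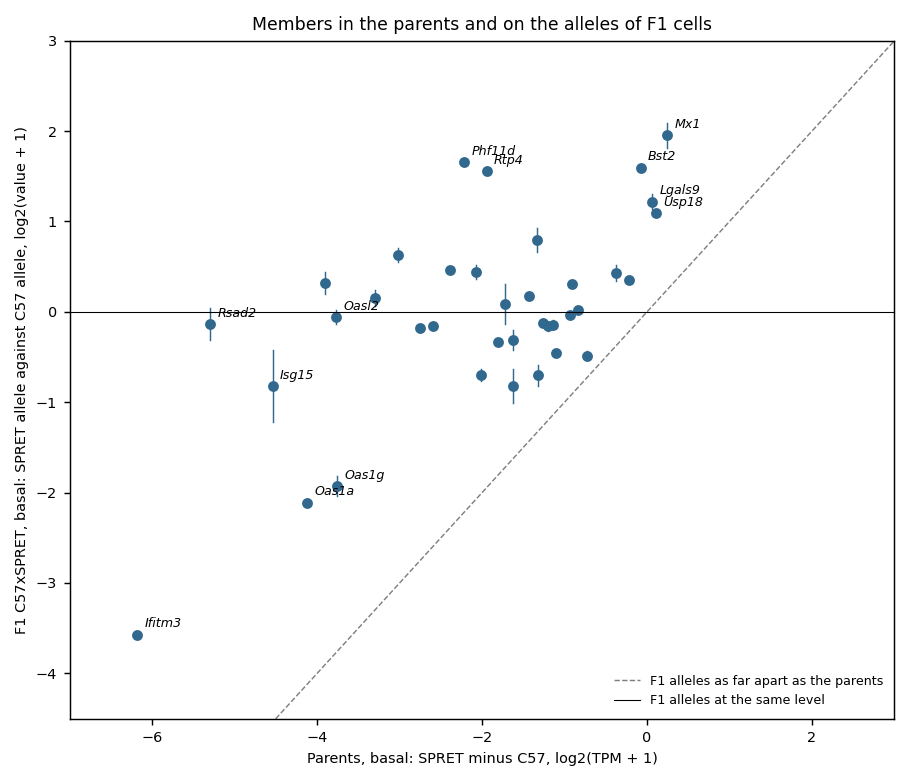
Log2 ratio of the SPRET to the C57 allele in basal F1 C57xSPRET BMDMs against the log2 difference between basal SPRET and C57 BMDMs, 1 point per member at the mean of the 2 libraries, with a vertical line from one library to the other and a dashed diagonal where both differences are equal. All 37 points lie above the diagonal, and Rsad2 is at -0.14 in the F1 against -5.29 between the parents.

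After 24 hours of IL-4, the C57 allele was below both basal libraries in both IL-4 libraries for 32 of the 37 members, with a median change of -0.83, and the SPRET allele for 29, with a median change of -0.82. Of all 10344 genes, 59.2% and 55.4% did so for the C57 and the SPRET allele, with median changes of -0.28 and -0.30, so most genes of the table were lower after IL-4 too. In the SPRET parent the median of all 42 members was -0.025. IL-4 replicate 2 of this cross stood apart, since the 104 genes with a low SPRET allele had a median log2 ratio of -1.30 there, against -2.60 in IL-4 replicate 1 and -2.75 and -2.72 in the basal libraries. The median allele ratio of the members was -0.17 in IL-4 replicate 1 and 0.03 in replicate 2. In basal F1 cells of C57 and NOD, 15 of the 42 members had values. Their median ratio of the NOD to the C57 allele was 0.12, against 0.25 between the parents. Rsad2 was at 104 and 48.9 for the C57 allele and 84.2 and 71.1 for the NOD allele, a ratio of 0.12 against 2.29 between the parents, and Eif2ak2 had a ratio of 0.072 against -1.42. Genes in general moved the same way. Of all genes, the 222 higher past 2-fold in the NOD parent had medians of 1.58 between the parents and 0.265 between the alleles. For the 645 lower genes these medians were -1.34 and -0.08.

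Other genes of the interferon pathway were counted from lists by role. Of 21 interferon ligand genes, 18 were at 0 in every library of the 5 strains, 16 in every time course library and 18 throughout the Egr2 table. None passed the filter. The single value of at least 1 TPM was Ifnb1 at 1.24 TPM in basal NOD replicate 1. All other values of these genes were under 1 TPM, the highest being 0.531 TPM in the time course and 0.225 TPM in the Egr2 table. Transcription factors of the pathway are given by gene. Irf7, which drives later interferon genes, was at 110.0 and 109 TPM in basal Egr2WT and 250.5 and 249 TPM in basal Egr2MKO, and at 32.8 and 26.3 TPM in Egr2WT and 208 and 212 TPM in Egr2MKO at 24 hours (1.18 ± 0.075 and 2.80 ± 0.075, adjusted p = 1.36e-06 and 2.25e-10). Irf1 and Irf9 were higher at 24 hours by 1.14 ± 0.081 and 1.01 ± 0.079 (adjusted p = 4.98e-07 and 1.20e-06). The 8 receptors and kinases tested had 6 higher and 1 lower there, and the 13 adaptors 6 and 1, where 25.9% and 11.5% of all genes were called.

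In basal SPRET, the transcription factor Irf3 was higher than in C57 (1.09 ± 0.078, adjusted p = 4.99e-12), and Irf7 was lower, at 36.3, 43.6 and 36.9 TPM against 584, 563 and 565 TPM (-3.84 ± 0.061, adjusted p = 1.25e-25). The time course gave -3.89 ± 0.12 for Irf7 (adjusted p = 3.50e-11). Irf1, Irf5, Irf8 and Irf9 were also called lower in basal SPRET of the first table. Receptors and kinases had 4 higher and 2 lower, with the receptor subunits Ifnar2 and Ifngr1 and the kinase Jak2 higher past 2-fold (1.05, 1.17 and 1.20), and adaptors 2 and 9, with Tbk1, Tlr9 and Trim25 lower past 2-fold (-1.01, -1.005 and -1.80). Of all genes, 35.5% were higher and 32.9% lower in that comparison. In basal NOD, Irf1 was higher by 1.47, and Irf3 and Irf5 were lower than in C57, at -1.11 and -1.43 (adjusted p = 9.83e-15, 3.89e-12 and 2.95e-17). After IL-4, the signalling inhibitors Socs1 and Cish rose past 2-fold at 24 hours in C57 (2.91 and 3.53), BALB (1.18 and 3.32) and SPRET (5.70 and 3.69), whereas in NOD and PWK Cish did (1.04 and 2.81) and Socs1 was at -0.21 and 0.95.

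Total tags per library, in units of 1e6 tags, ran from 7.02 to 22.5 for the 5 strains, from 5.70 to 24.0 for the time course and from 4.69 to 32.9 for the Egr2 table. All 8 macrophage markers reached 1 TPM on average in basal C57. In basal NOD, basal PWK and SPRET after IL-4, 7 did. SPRET of the time course also had 7 at every time, with Fcgr1 under 0.1 TPM at 1 and 24 hours. The sum of the markers ran from 11020 to 30790 TPM over the 29 libraries of the strains, with Lyz2 the highest in every group. Summed markers of T, NK, B, conventional dendritic and erythroid cells were at most 8.17 TPM in any library of the 3 tables. Markers of plasmacytoid dendritic cells, which make much interferon, summed to 29.05 to 34.6 TPM in basal C57, 87.0 to 94.8 TPM in basal NOD and 111 to 119 TPM in basal SPRET, of which Cox6a2 was the highest in NOD and SPRET, while Siglech and Ccr9 had means under 0.1 TPM in both and 2 of the 7 markers reached 1 TPM. In the Egr2 table these sums were 20.8 to 22.6 and 21.1 to 23.5 TPM under basal conditions and 18.3 to 21.4 and 31.2 to 35.0 TPM at 24 hours. Neutrophil and precursor markers summed to 106 to 131 TPM in basal C57, 548 to 555 TPM in PWK and 344 to 404 TPM in SPRET, and to 19.4 to 21.9 against 10.9 to 16.1 TPM at 24 hours in Egr2WT and Egr2MKO. S100a8 was the highest of them, with a mean of 346 TPM in basal PWK and 366 TPM in basal SPRET. S100a9 was at 189 TPM in basal PWK and 0.346 TPM in basal SPRET, where Ly6g, Mpo and Ngp were under 0.1 TPM. Fibroblast and stromal markers summed to 4.84 to 5.91 TPM in basal C57 and 202 to 210.0 TPM in PWK. Most of the PWK sum was Dcn, at 204 TPM on average, while Col1a1, Col1a2 and Col3a1 were under 0.1 TPM. The part of other cell types in the differences between strains and genotypes was not tested.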

How the data were processed

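RNA-seq of polyadenylated RNA was available for 69 samples, 61 in the 3 main tables and 8 F1 libraries. Per the study's methods, the authors mapped reads with STAR to each strain's own genome, shifted them to mm10 and quantified exons with HOMER. The deposited values used here are TPM, and for the F1 cells allele-weighted TPM, expression split by the reads that overlap strain variants. Deposited columns of the authors' own fold changes and p-values were not used, nor was a human table, with 8 columns that could not be matched to samples. Results for 1 gene of the pathway are not reported here.

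Genes with at least 1 TPM in 2 libraries were tested (11907, 12088 and 12079 genes) with limma 3.58.1 in R 4.3.3 on log2(TPM + 1), which understates changes of low genes, with 1 mean per group, 1 model per table and Benjamini-Hochberg adjustment over all genes tested. Differences in response were interaction contrasts. Per comparison, at most 5 members per direction were named. They had the largest differences among the members that passed and whose groups did not overlap. Differences in response had no rule on overlap. The separation of the libraries of named members was thus set by this choice and is not a result. The members and lists were chosen with earlier results of these data known. On simulated data, of 100 genes changed by 1 on the log2 scale, 100% were recovered for BALB at 24 h, 91% for C57 of the time course at 24 h and 90% for Egr2MKO against Egr2WT at 24 h, with 15 of 214, 10 of 200 and 11 of 198 calls false. Libraries are described as biological replicates. Alternatives were other pseudocounts (0.1 and 5 TPM), no filter, median-ratio scaling, only the groups compared, the replicate number as a block, and leaving out each library. Tags per library limit the precision of low values, and TPM keeps no counts for intervals.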

Additional observations from a re-analysis of the deposited data

Results flagged for a closer look

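The following members had a difference in 24 h response, by the interaction contrast in limma, past the threshold and past 2-fold. In NOD against C57 these were Ifit3 (1.50), Ifit2 (1.30) and Eif2ak2 (1.08), in PWK against C57 Ifit3 (1.74), Ifit2 (1.47) and Ifit1 (1.41), and in SPRET against C57 Ifit3 (1.43) and Ifit2 (1.02), all on the log2 scale. In the time course, SPRET against C57 gave Ifit3 (2.37), Ifit2 (1.72), Ifit1 (1.46), Oasl1 (1.13), Zbp1 (1.13), Ifitm3 (1.11), Stat2 (1.10), Mx1 (1.04) and Phf11b (1.03). In Egr2MKO against Egr2WT they were Oas2 (1.63), Oasl2 (1.23), Ifi44 (1.09), Oas3 (1.08), Ifit1 (1.04) and Ifit2 (1.03). The contrasts of the 5 strains share the C57 libraries. In SPRET, the basal levels of Ifit3 and Ifit2 in both tables, and of Ifit1 and Oasl1 in the time course, were too low on the log2(TPM + 1) scale for a fall as large as in C57.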

How the results depend on the processing

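Of the counts of members in the leading direction, 406 values over all alternatives stayed within 1.5 times the reported count and 27 moved, and of the named members 2221 values kept their side of the threshold, 142 no longer passed and 0 reversed. With median-ratio scaling the count was 2 higher in NOD at 24 h (reported 7), 13 lower in SPRET at 24 h (7), 7 more positive responses in NOD (18) and 10 in SPRET (17). With a pseudocount of 5 TPM it was 4 lower in SPRET at 24 h and 5 in the 6 h response of the time course (3). With only the groups compared it was 4 lower in SPRET at 24 h, 4 higher and 4 lower in SPRET of the time course at 6 h and 24 h (9 and 12), 17 in Egr2MKO against Egr2WT at 6 h (36) and 12 lower in Egr2WT at 6 h (20). With the replicate number as a block the 6 h response of the time course gave 5, and no other leading count moved by over 1.5 times. The correlation of deviations between samples that share a number averaged 0.013, 0.031 and -0.005 in the 3 tables and was over 0.1 for 9 of 126, 6 of 56 and 0 of 56 pairs (at most 0.333), so the numbers were not taken to pair the samples.

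Leaving out each library in turn, the counts ran from 2 to 6 in PWK at 24 h (2 without PWK basal replicate 2), from 4 to 7 in SPRET at 24 h, from 13 to 21 in basal PWK, from 11 to 20 in the BALB response and from 9 to 18 in the PWK response. They ran from 2 to 3 in C57 of the time course at 6 h (2 without C57 basal replicate 1 or IL-4 6 h replicate 2), from 0 to 1 in SPRET at 1 h (1 without SPRET basal replicate 2), from 2 to 5 in the 6 h response, from 0 to 1 in Egr2WT at 1 h (1 without Egr2WT basal replicate 2), from 7 to 13 in Egr2MKO at 6 h and from 8 to 10 in Egr2MKO at 24 h (14 with all libraries). In groups of 2, the lone library left is assumed to vary like the others. Low members, such as the 6 with a mean under 1 TPM in basal SPRET, are limited by depth. The cause of these changes was not tested.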
